A study of Mus musculus with 6 samples.

Results

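The DNA damage checkpoint and p53 genes comprise Atm, Atr, Atrip, Rad9a, Hus1, Chek1, Chek2, Trp53, Mdm2 and Mdm4. They were chosen by name as the sensor kinases and clamp subunits, the checkpoint kinases, and p53 with its regulators. All 10 were found among the 39179 Ensembl gene identifiers of the RNA-Seq table, Rad9a under its older symbol Rad9. Germinal center (GC) B cells, sorted as Fas+GL7+, were compared with naive B cells, sorted as Fas-GL7-, from Peyer's patches of the ileum. All mice were WT C57BL/6 females aged 12 weeks, with no treatment named, and each population was measured in 3 pools of 5 littermate mice. The naive gate used no marker beyond the absence of Fas and GL7, so that it was not limited to cells that never met antigen.

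The checkpoint stops the cell cycle when DNA is damaged or replication stalls. ATM responds mainly to double-strand breaks and signals to CHK2, whereas ATR, carried to single-stranded DNA by ATRIP and activated with the help of the RAD9-RAD1-HUS1 clamp, signals to CHK1. Both arms reach p53, a transcription factor that MDM2 marks for degradation and that MDM2 and MDM4 hold inactive. GC B cells divide fast while activation-induced deaminase damages their DNA, and BCL6 is known to repress several checkpoint genes in them, Trp53, Atr and Chek1 among them.

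Levels are given in TPM, the share of transcripts per 1000000, obtained from the deposited FPKM (fragments per kilobase, scaled to library size) and corrected for transcript length, so that genes can be set beside each other. Fold changes are GC minus naive on the log2(TPM + 1) scale, which understates the change of low genes. They were tested with limma over all 12785 genes that reached 1 TPM in at least 3 of the 6 pools, a filter that all 10 members passed. Every member reached 1 TPM in every pool. Of the genes named below, Hus1b, Clspn, Cdc25c, Cdkn2a, Mki67 and Cdk1 passed only through GC pools, and Plk2 only through naive pools. For these genes the filter fixed the direction in which they could be called. A gene was called at a Benjamini-Hochberg adjusted p under 0.05. The pools held about 9700000 to 16200000 reads, as judged from the steps between low FPKM values, where 66.1% to 72.2% of these values were close to whole reads. The 6 GC markers summed to 1305 to 1353 TPM in GC against 51.9 to 58.0 TPM in naive pools. The 4 naive markers with a value summed to 102 to 114 TPM in GC against 1320 to 1426 TPM in naive pools. The 6 epithelial markers summed to 47.8 to 107 TPM in GC against 118.7 to 150.7 TPM in naive pools, and 5 of them were lower in GC B cells. The 5 T cell markers summed to at most 3.51 TPM in any pool. The collagen and pericyte genes among the 4 stromal and endothelial markers were near 0. The endothelial marker Pecam1, which B cells also express, made up nearly all of that sum at 21.9 to 24.25 TPM in GC against 121 to 131.8 TPM in naive pools. The 5 myeloid markers summed to 13.7 to 15.8 TPM in GC against 8.30 to 13.4 TPM in naive pools. Cd68 was the largest part and was higher in GC B cells (mean 13.1 against 5.88 TPM). Lyz2 (1.28 against 3.30 TPM, not called) and Itgam (0.106 against 1.02 TPM, not tested) had higher means in naive B cells. The 4 plasma cell markers summed to 766 to 801 TPM in GC against 140 to 173 TPM in naive pools, nearly all of it from Jchain and Xbp1. Prdm1 was at most 5.22 TPM and Sdc1 at most 3.66 TPM. They did not move together: Jchain (mean 669 against 33.3 TPM) and Prdm1 were higher in GC B cells, while Xbp1 (104 against 120 TPM) and Sdc1 were lower. The part of these other cells in the results below was not tested.

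Of the 10 members, 5 were higher in GC B cells (Chek1, Chek2, Mdm2, Trp53 and Hus1), 2 were lower (Atr and Rad9a), and 3 did not pass the test (Atm, Atrip and Mdm4). Over all genes tested, 65.6% were called, 35.5% as higher and 30.1% as lower in GC B cells, so that 7 calls among 10 members is near the share over all genes. The sizes differed widely, from 23.3-fold in mean TPM for Chek1 to 1.28-fold for Trp53 and 1.26-fold for Hus1. The median log2 fold change was 0.12 over the members and 0.03 over all genes tested. In bulk samples a gene transcribed in fewer cells cannot be told apart from one with less RNA per cell.

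**Figure D1:**
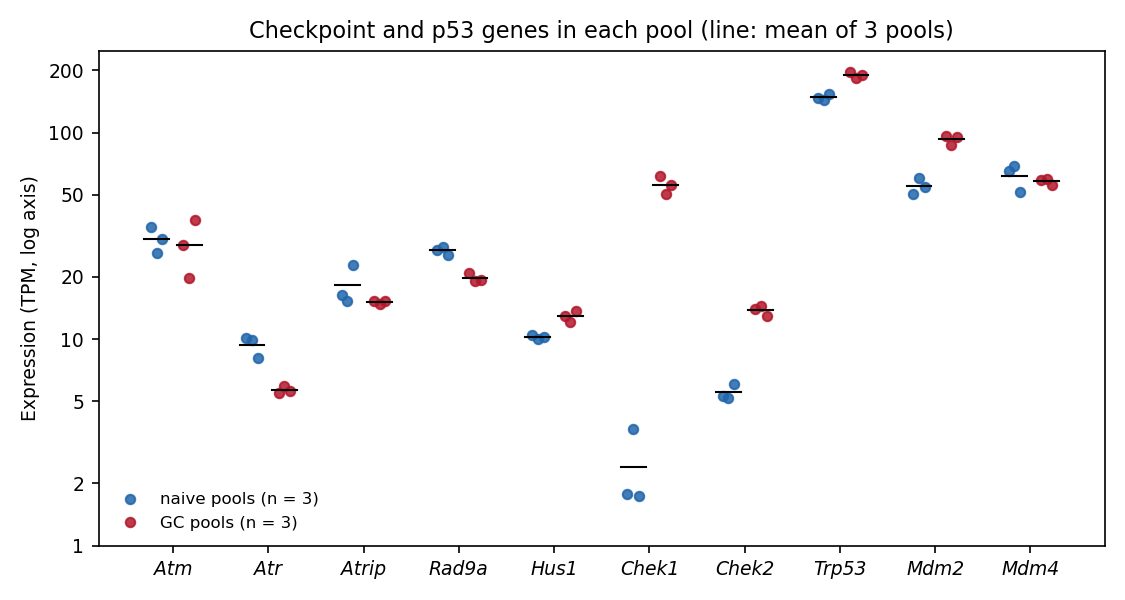
Expression in TPM, on a log axis, of the 10 members in each of the 3 naive (blue) and 3 GC (red) pools, with a line at the mean of each population. Chek1 lies between 1.74 and 3.67 TPM in naive and between 50.3 and 61.3 TPM in GC pools, while the pools of Atm, Atrip and Mdm4 overlap.

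Atm (ENSMUSG00000034218; chromosome 9, 53437122 to 53536828, GRCm38), which encodes the kinase that answers to double-strand breaks, was at 28.4, 19.8 and 37.6 TPM across the GC pools (replicates 1, 2 and 3, an order kept throughout) and at 34.9, 26.05 and 30.6 TPM across the naive pools. The pools of both populations overlapped, and the GC pools spread most of any member in that population (CV 31.1%). The log2 fold change of -0.13 ± 0.232 (SE) did not pass the test (adjusted p = 0.659 in limma), with a 95% interval from -0.69 to 0.43, and it was 0.11 without GC replicate 2. The MRE11-RAD50-NBN complex, which recruits ATM to broken ends, was higher in GC B cells in all 3 subunits. Nbn rose from 12.4 ± 0.766 to 23.5 ± 0.758 TPM (SD, n = 3; adjusted p = 9.38e-05 in limma). Rad50 rose from 16.8 ± 2.19 to 29.5 ± 2.17 TPM (adjusted p = 0.0008685). Mre11a rose from 18.9 ± 0.557 to 26.6 ± 0.946 TPM (adjusted p = 0.000761).

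Atr (ENSMUSG00000032409; chromosome 9, 95857597 to 95953217), the kinase of replication stress, showed the largest decrease among the members. It was at 5.51, 5.92 and 5.63 TPM across the GC pools and at 10.1, 9.95 and 8.06 TPM across the naive pools, which did not overlap, as was the case for 70.7% of all genes tested (37.8% higher and 32.8% lower in GC B cells). The mean was 1.65-fold higher in naive B cells, with a log2 fold change of -0.63 ± 0.114 (SE; adjusted p = 0.00290 in limma). Atr was the lowest member in GC B cells, where 25.8% of all genes tested had a lower mean.

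Atrip (ENSMUSG00000025646; chromosome 9, 109059747 to 109074124), the partner through which ATR binds coated single-stranded DNA, did not follow it past the threshold. The GC pools were tight at 15.2, 14.7 and 15.4 TPM, and the naive pools were at 16.3, 15.4 and 22.9 TPM, so that naive replicate 3 stood above all others. The log2 fold change was -0.23 ± 0.151 (SE; adjusted p = 0.221 in limma; 95% interval -0.60 to 0.13), and it was -0.06 without naive replicate 3. Trex1, a DNA exonuclease gene, lies directly next to Atrip on the same strand, and in the Ensembl models of the older build the Atrip locus contains it. Some reads could thus be divided between them. Trex1 was at 24.4, 28.4 and 21.0 TPM across the GC pools and at 31.2, 37.6 and 31.7 TPM across the naive pools (log2 fold change -0.44 ± 0.128, SE; adjusted p = 0.0225 in limma), and this call was lost without GC replicate 1, GC replicate 3 or naive replicate 2 (adjusted p = 0.058, 0.058 and 0.0695).

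The clamp subunits moved in opposite directions. Rad9a (ENSMUSG00000024824; chromosome 19, 4195196 to 4201672), whose product carries the tail that binds TOPBP1, was at 21.0, 19.2 and 19.3 TPM across the GC pools and at 27.0, 27.9 and 25.65 TPM across the naive pools. All GC pools were below all naive pools, and the log2 fold change was -0.42 ± 0.070 (SE; adjusted p = 0.00200 in limma). The end of Rad9a overlaps the end of Ppp1ca on the other strand by 224 bases, and the library kit named in the labels does not state strand, so reads from these bases cannot be told apart. Ppp1ca, a protein phosphatase subunit gene, was higher in GC B cells (374.5 ± 4.57 against 212.1 ± 4.84 TPM, SD, n = 3; adjusted p = 4.565e-06 in limma), in the opposite direction to Rad9a.

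Hus1 (ENSMUSG00000020413; chromosome 11, 8993137 to 9011236) was at 12.9, 12.1 and 13.7 TPM across the GC pools and at 10.45, 10.01 and 10.2 TPM across the naive pools, again with no overlap. Its log2 fold change of 0.31 ± 0.082 (SE; adjusted p = 0.0153 in limma) was the smallest that was called among the members, and without GC replicate 3 it missed the threshold (0.27, adjusted p = 0.0548). The third subunit, Rad1, was at 22.0 ± 1.89 TPM in GC against 21.7 ± 3.64 TPM in naive B cells (SD, n = 3), with overlapping pools. It had a log2 fold change of 0.03 (95% interval -0.30 to 0.36; adjusted p = 0.863) and a sign that turned under quantile normalization (-0.03) and with FPKM as deposited (-0.02). Rad17, which loads the clamp, was at 23.7 ± 1.95 and 19.6 ± 1.57 TPM, close to the threshold (0.26 ± 0.093, SE; adjusted p = 0.0459 in limma) and it missed the threshold in 9 of the 13 alternatives, with the replicate number as a block among them. Topbp1, which the clamp brings to ATR as its activator, was 3.11-fold higher in GC B cells (90.05 ± 2.62 against 29.0 ± 3.09 TPM; log2 fold change 1.61; adjusted p = 9.28e-06). The paralogs were measured too. Rad9b was at 12.35, 6.53 and 6.47 TPM across the GC pools and at 14.6, 16.7 and 12.4 TPM across the naive pools, so that GC replicate 1 nearly reached naive replicate 3 (log2 fold change -0.77 ± 0.25, SE; adjusted p = 0.0329). Hus1b was low, at 1.36 to 1.52 TPM in GC against 0.258 to 0.4455 TPM in naive pools (adjusted p = 0.00150 in limma). It passed the filter only through its GC pools, so it could be called only as higher.

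Chek1 (ENSMUSG00000032113; chromosome 9, 36708482 to 36726658), which encodes the kinase that ATR activates, showed the largest difference among the members. It was at 61.3, 50.3 and 55.4 TPM across the GC pools and at 1.77, 3.67 and 1.74 TPM across the naive pools. The naive values correspond to about 50, 140 and 42 reads if all came from the longest annotated transcript. Naive replicate 2 was the most deeply sequenced pool, which bears on its reads, whereas TPM is scaled for depth. Why its TPM was the highest of the naive pools was not tested. The mean was 23.3-fold higher in GC B cells, and the log2 fold change of 4.10 ± 0.223 (SE; 95% interval 3.57 to 4.64; adjusted p = 1.09e-05 in limma) was the 161st highest of 12785 genes. It lay between 3.97 and 4.36 when each pool was left out in turn. Chek1 was thus the lowest member in naive B cells, where 15.5% of all genes tested had a lower mean, and its pools overlapped with those of Mdm4 in GC B cells, where 76.5% had a lower mean.

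Chek2 (ENSMUSG00000029521; chromosome 5, 110839800 to 110874140), the kinase of the ATM arm, was at 14.1, 14.4 and 12.99 TPM across the GC pools and at 5.32, 5.20 and 6.03 TPM across the naive pools, with every GC pool above every naive pool. It was 2.51-fold higher in GC B cells (log2 fold change 1.19 ± 0.096, SE; adjusted p = 6.75e-05 in limma). The order of both kinases was therefore opposite in the 2 populations, with Chek2 above Chek1 in every naive pool and Chek1 above Chek2 in every GC pool.

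A list of proliferation genes was set beside Chek1 and Chek2, which were higher in GC B cells, as were Mdm2, Trp53 and Hus1. The log2 fold change of Chek2 (1.19) was below that of every proliferation gene listed except Ccne1 (1.08). All 15 proliferation genes were higher in GC B cells, against 35.5% of all genes tested. Their summed level was 3237 to 3331 TPM across the GC pools and 312 to 329.3 TPM across the naive pools. Their median log2 fold change was 3.70, against 0.03 over all genes tested. Mki67, the marker of cycling cells, was at 228 ± 1.04 TPM in GC against 0.785 ± 0.107 TPM in naive B cells (SD, n = 3; log2 fold change 7.01). Cdk1 was at 147.1 ± 2.12 and 0.598 ± 0.314 TPM (6.55), and Top2a was at 408 ± 15.4 and 4.5 ± 0.570 TPM (6.22; adjusted p between 5.28e-08 and 2.90e-07 for the 3 genes in limma). The part of proliferation in the levels of Chek1 and Chek2 was not tested. By the distance of log2(TPM + 1) over the 6 pools, the genes most alike Chek1 were ENSMUSG00000096210, which has no symbol in the table used here (59.1 TPM in GC against 2.95 TPM in naive B cells; root mean square distance 0.29), Spc25 (50.15 and 2.81 TPM; 0.29) and Dna2 (49.2 and 2.25 TPM; 0.32).

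The stretches before the start sites of Chek1 and Atr, the members with the largest increase and the largest decrease, and of Mdm2 are shown to set the letters before these start sites beside each other. The stretches are the 250 bases upstream of the RefSeq start sites (GRCm38), in gene orientation, at chr9:36726659-36726908 on the minus strand for Chek1, chr9:95857347-95857596 on the plus strand for Atr, and chr10:117710759-117711008 on the minus strand for Mdm2. Capitals mark matches, on either strand, to the CCAAT box or to the cell cycle homology region (TTTGAA or TTCGAA), and the stretch of Chek1 held neither.
Chek1: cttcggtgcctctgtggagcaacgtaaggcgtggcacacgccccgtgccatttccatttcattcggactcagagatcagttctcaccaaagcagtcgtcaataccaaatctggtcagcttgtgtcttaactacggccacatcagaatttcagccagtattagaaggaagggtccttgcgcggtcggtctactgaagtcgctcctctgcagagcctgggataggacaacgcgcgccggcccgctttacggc
Atr: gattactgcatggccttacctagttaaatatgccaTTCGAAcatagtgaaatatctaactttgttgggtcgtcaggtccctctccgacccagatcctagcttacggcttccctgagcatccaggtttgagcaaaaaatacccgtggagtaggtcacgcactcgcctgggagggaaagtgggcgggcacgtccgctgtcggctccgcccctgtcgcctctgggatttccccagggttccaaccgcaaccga
Mdm2: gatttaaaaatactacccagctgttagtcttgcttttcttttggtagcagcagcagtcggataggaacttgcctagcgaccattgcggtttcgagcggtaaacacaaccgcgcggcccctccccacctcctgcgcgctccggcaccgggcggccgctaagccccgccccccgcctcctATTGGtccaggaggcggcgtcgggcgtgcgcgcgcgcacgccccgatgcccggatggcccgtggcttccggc

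The E2F motif (TTCCCGC or TTCGCGC or TTGCCGC or TTGGCGC, on either strand), named after the factors that drive genes at the entry into S phase, was searched in windows from 250 bases before to 50 bases after the start site. It was found in 3 of the 9 members with a window (Chek1, Chek2 and Atm) and in 9.57% of all 32851 windows. The matches, in capitals within 20 bases each, begin at base 44 after the start site in Chek1 (chr9:36726609-36726628), 152 bases before it in Chek2 (chr5:110839824-110839843) and at base 16 after it in Atm (chr9:53536644-53536663).
Chek1: caagcaggttttgGCGGGAA
Chek2: attagccGCGGGAAaccaag
Atm: gccggaaGCGGGAAggcgtg
The same 7 letters thus stand in a gene with the largest increase, in one with a moderate increase, and in one whose pools overlapped. CCAAT was found in 5 of the 9 members and in 37.4% of all windows, the cell cycle homology region in 2 of the 9 and in 19.2%, and the full p53 element in none of the 9 and in 0.0731%. A match describes letters and not a bound site. Bases further than 50 after the start site were not searched, so a motif deeper in a gene, Mdm2 included, would have been missed.

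Trp53 (ENSMUSG00000059552; chromosome 11, 69580348 to 69591873), which encodes p53, was the highest member in both populations, above 93.95% of all genes tested in GC and 92.5% in naive B cells. It was at 196.5, 183.6 and 189.3 TPM across the GC pools and at 146.4, 144.4 and 153.2 TPM across the naive pools. The lowest GC pool lay above the highest naive pool, and the difference was small but precise, with a log2 fold change of 0.36 ± 0.046 (SE; 95% interval 0.25 to 0.47; adjusted p = 0.0006005 in limma). A processed copy of the gene, Trp53-ps, was listed at 0 in all 6 pools. Bcl6, which encodes the GC repressor, was higher in the same pools as Trp53 (249.8 ± 8.14 against 49.2 ± 2.33 TPM, SD, n = 3; log2 fold change 2.32; adjusted p = 3.34e-07). The genes most alike Trp53 over the 6 pools were Pold4 (186.9 TPM in GC against 150.1 TPM in naive B cells; root mean square distance 0.05), ENSMUSG00000097508, which has no symbol in the table used here (186.9 and 150.1 TPM; 0.05), and Rrp1 (195.7 and 153.9 TPM; 0.06). Pold4 and ENSMUSG00000097508 had the same means to the digits given, and whether they are separate genes was not checked.

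Mdm2 (ENSMUSG00000020184; chromosome 10, 117688875 to 117710758), which encodes the ubiquitin ligase of p53 and is itself a p53 target gene, was at 96.2, 87.0 and 95.2 TPM across the GC pools and at 50.6, 60.25 and 54.3 TPM across the naive pools. All GC pools were above all naive pools, by 1.69-fold in the mean (log2 fold change 0.74 ± 0.079, SE; adjusted p = 0.000240 in limma). Mdm4 (ENSMUSG00000054387; chromosome 1, 132986105 to 133030587), whose product inhibits p53 beside MDM2, was at 59.2, 59.3 and 55.9 TPM across the GC pools and at 64.8, 69.0 and 51.3 TPM across the naive pools. The GC pools lay within the range of the naive pools, and the log2 fold change of -0.07 ± 0.112 (SE) did not pass the test (adjusted p = 0.588 in limma; 95% interval -0.35 to 0.20). Without naive replicate 3, the lowest naive pool, it was -0.20 and was called (adjusted p = 0.0273), and without naive replicate 2 it was 0.01. A processed copy, Mdm4-ps, was at 15.1 to 16.5 TPM in GC against 21.3 to 25.7 TPM in naive pools (log2 fold change -0.49; adjusted p = 0.00360), and how reads were divided between both genes is not known.

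**Figure D2:**
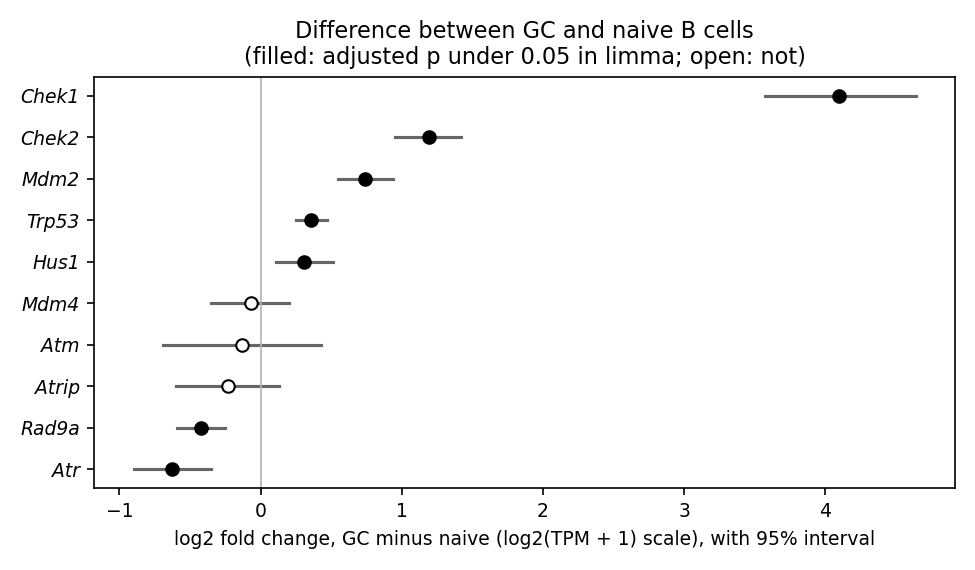
Log2 fold change between GC and naive B cells for each member on the log2(TPM + 1) scale, with 95% intervals from limma; filled points passed an adjusted p of 0.05. Chek1 stands apart at 4.10, followed by Chek2 at 1.19 and Mdm2 at 0.74, while the intervals of Mdm4, Atm and Atrip include 0.

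The order of the levels changed between the populations. In GC B cells it ran from Trp53 (189.8 TPM) through Mdm2 (92.8), Mdm4 (58.1), Chek1 (55.7) and Atm (28.6), then Rad9a (19.8), Atrip (15.1), Chek2 (13.8) and Hus1 (12.9) to Atr (5.69 TPM). The pools of neighbors overlapped, so that their order was not resolved, for Mdm4 and Chek1, for Atm and Rad9a, and for Chek2 and Hus1. In naive B cells it ran from Trp53 (148 TPM) through Mdm4 (61.7), Mdm2 (55.0), Atm (30.5), Rad9a (26.9), Atrip (18.2), Hus1 (10.2), Atr (9.38) and Chek2 (5.52) to Chek1 (2.39 TPM). There was overlap between Mdm4 and Mdm2, between Atm and Rad9a, and between Hus1 and Atr.

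The balance between related members was examined as the ratio of their TPM within each pool, which does not depend on how pools are scaled. Each of the 6 ratios was compared with a two-sided exact permutation test over the pools, for which 3 pools against 3 cannot give a p below 0.1. Chek1/Chek2 was 4.36, 3.49 and 4.27 across the GC pools and 0.3325, 0.705 and 0.289 across the naive pools, a log2 difference of 3.30 or 9.86-fold. Mdm2/Mdm4 was 1.625, 1.47 and 1.70 across the GC pools and 0.780, 0.873 and 1.06 across the naive pools, a 1.78-fold difference, so that Mdm2 exceeded Mdm4 in every GC pool and in 1 of 3 naive pools. Rad9a/Hus1 was 1.63, 1.58 and 1.405 in GC and 2.59, 2.79 and 2.51 in naive pools, 1.71-fold lower in GC B cells. Trp53/Mdm2 was 2.04, 2.11 and 1.99 in GC and 2.895, 2.40 and 2.82 in naive pools, 1.32-fold lower in GC B cells. These 4 ratios did not overlap between the populations and had the smallest exact p that is possible, 0.1 (adjusted p = 0.15 over the 6 ratios). The ratios of Atr/Atm (0.194, 0.299 and 0.1497 in GC against 0.290, 0.382 and 0.264 in naive pools; exact p = 0.3, adjusted p = 0.36) and of Atrip/Atr (2.76, 2.49 and 2.73 against 1.61, 1.54 and 2.85; exact p = 0.4, adjusted p = 0.4) overlapped.

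**Figure D3:**
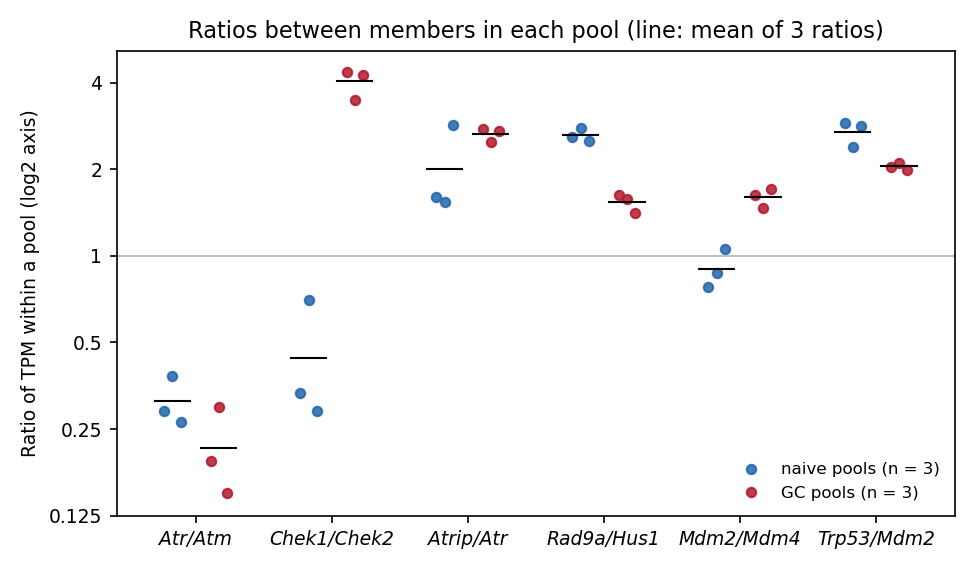
Ratio of the TPM of a pair of members within each pool, on a log2 axis, for 3 naive (blue) and 3 GC (red) pools, with a line at the mean of each population. Chek1/Chek2 is above 1 in all GC pools (3.49 to 4.36) and below 1 in all naive pools (0.289 to 0.705), while Atr/Atm and Atrip/Atr overlap.

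The genes around the members were counted in lists. Of the 21 damage sensors and adaptors, 17 were higher in GC B cells, 1 was lower and 3 did not pass the test. Hus1b and Clspn, among the 17, passed the filter only through GC pools. Over all genes tested, 65.6% were called, 35.5% as higher and 30.1% as lower. The median log2 fold change of this list was 0.85 against 0.03 over all genes tested. The largest increases were in Clspn, which encodes claspin, the adaptor that brings CHK1 to ATR (96.0 ± 4.38 against 0.676 ± 0.308 TPM, SD, n = 3; log2 fold change 5.87; adjusted p = 4.87e-07 in limma). The others were H2afx, the histone that ATM and ATR phosphorylate at breaks (525 ± 14.6 against 39.9 ± 1.60 TPM; 3.68; adjusted p = 8.57e-08), and Brca1, which acts in repair by homologous recombination (25.3 ± 1.94 against 1.45 ± 0.133 TPM; 3.42; adjusted p = 8.835e-07). Clspn thus rose in the same pools as Chek1, while Atr fell. The only sensor called lower was Rad9b, and this call was lost without a filter and without GC replicate 2, GC replicate 3, naive replicate 1 or naive replicate 2.

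Downstream of the checkpoint kinases, all 8 genes were called, 7 as higher and 1 as lower in GC B cells, against 65.6% called and 35.5% higher over all genes tested. The median log2 fold change was 1.85 against 0.03, and the list holds both brakes and drivers of mitotic entry. Among the drivers, Plk1 was at 89.25 ± 2.15 TPM in GC against 1.27 ± 0.197 TPM in naive B cells (SD, n = 3; log2 fold change 5.31; adjusted p = 1.675e-07 in limma). Cdc25c was at 17.7 ± 0.488 and 0.141 ± 0.0761 TPM (4.03; adjusted p = 5.815e-07). Cdc25a, whose product CHK1 marks for degradation, was at 30.7 ± 1.47 and 7.79 ± 0.507 TPM (1.85; adjusted p = 4.17e-06). Wee1, a brake that inhibits CDK1, rose in the same pools, to 37.5 ± 1.71 from 3.32 ± 0.387 TPM (3.16; adjusted p = 9.79e-07). The exception was Plk3, a stress-response kinase gene, at 9.33 ± 1.23 TPM in GC against 26.5 ± 2.09 TPM in naive B cells (-1.42; adjusted p = 6.885e-05).

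Of the 15 other p53 regulators, 13 passed the filter, of which 4 were higher in GC B cells, 1 was lower and 8 did not pass the test. Over all genes tested 65.6% were called, a larger share than in this list, whose median log2 fold change was 0.09. Besides Bcl6, these were Usp7, which removes ubiquitin from p53 and MDM2 (244.7 ± 5.77 against 114.9 ± 12.0 TPM, SD, n = 3; 1.09; adjusted p = 4.22e-05 in limma) and Trp53inp1 (53.15 ± 1.36 against 34.4 ± 3.10 TPM; 0.62; adjusted p = 0.000502). The fourth was Cdkn2a, whose ARF product inhibits MDM2. It had 1.05, 1.73 and 1.37 TPM across the GC pools, and every naive pool listed it at 0 (adjusted p = 0.000574 in limma). Cdkn2a lay close to the filter and passed it only through its GC pools, so it could be called only as higher. Rchy1, another ubiquitin ligase of p53, was lower in GC B cells (35.25 ± 2.69 against 61.05 ± 2.48 TPM; -0.78; adjusted p = 0.000134). The p53 relatives Trp63 and Trp73 were under 1 TPM in every pool and were not tested.

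Of 24 p53 target genes, 21 passed the filter, of which 8 were higher and 6 lower in GC B cells and 7 did not pass the test. These counts are near the 35.5% higher and 30.1% lower over all genes tested, and the median log2 fold change was 0.11 against 0.03. The largest increases were in Bbc3, which encodes the death protein PUMA (20.4 ± 2.72 against 3.59 ± 1.05 TPM, SD, n = 3; 2.24; adjusted p = 7.57e-05 in limma). Next came Pidd1, a death domain adaptor gene (45.0 ± 1.24 against 9.25 ± 0.952 TPM; 2.17; adjusted p = 2.79e-06), and Rrm2b, a ribonucleotide reductase subunit gene (61.2 ± 4.35 against 21.8 ± 1.08 TPM; 1.45; adjusted p = 8.72e-06). On the log2(TPM + 1) scale the largest decreases were in Ddit4 (20.7 ± 0.740 against 111.7 ± 22.6 TPM; -2.36; adjusted p = 1.505e-05) and Sesn1 (25.9 ± 0.739 against 73.4 ± 5.33 TPM; -1.47; adjusted p = 5.67e-06), both of which restrain mTORC1, and in the antiproliferative gene Btg2 (56.4 ± 3.25 against 131.1 ± 10.3 TPM; -1.20; adjusted p = 1.98e-05). Plk2, a low gene, fell more than Sesn1 and Btg2 in mean TPM (0.6925 ± 0.0676 against 2.91 ± 1.31 TPM, a 4.197-fold difference; -1.15; adjusted p = 0.006525). Cdkn1a, which encodes the CDK inhibitor p21, was at 10.35, 8.997 and 9.98 TPM across the GC pools and at 5.29, 2.49 and 4.725 TPM across the naive pools, with no overlap (1.10 ± 0.230, SE; adjusted p = 0.00553). Bax was 1.19-fold higher in GC B cells (adjusted p = 0.00663), a call that was lost under quantile normalization (0.12, adjusted p = 0.16). Ccng1, at 29.6 ± 0.447 and 30.5 ± 0.826 TPM, did not pass the test (-0.04; 95% interval -0.18 to 0.09; adjusted p = 0.542).

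**Figure D4:**
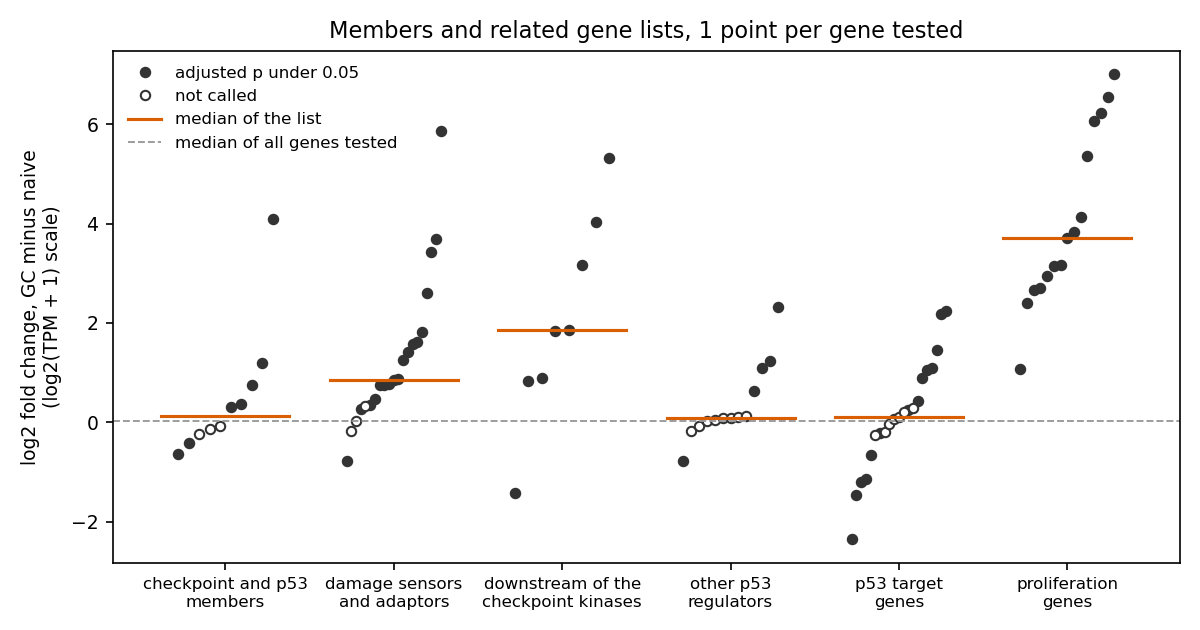
Log2 fold change between GC and naive B cells, on the log2(TPM + 1) scale, of every tested gene of the members and of 5 related lists; filled points passed an adjusted p of 0.05 in limma, orange lines are list medians and the dashed line is the median of all genes tested (0.03). The medians are 0.12 for the members, 0.85 for sensors and adaptors, 1.85 downstream of the checkpoint kinases, 0.09 for other p53 regulators, 0.11 for p53 target genes and 3.70 for proliferation genes.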

How the data were processed

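RNA of each population, from 3 pools of 5 mice, was sequenced from libraries of the NEB Next Ultra kit. Whether both populations were sorted from the same mice is not stated. According to the methods and the submitters' processing notes, the authors demultiplexed reads with CASAVA 1.8, checked them with FastQC, trimmed adapters with cutadapt 1.9 and quantified them with RSEM 1.2.25 on the mouse transcriptome (NCBIm38, Ensembl 75). The deposited FPKM are per kilobase and per 1000000 fragments, with 1 column per pool. The processing notes also name edgeR without its role, so whether pools were scaled to each other is not known. RSEM divides reads that match several transcripts by estimation, which bears on genes with copies or overlaps. Read counts are not part of the table used here, so no count test was run.

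FPKM were divided by their column sum to give TPM. Of 39179 identifiers, 33398 were named through the gene tables. Genes that reached 1 TPM in 3 pools or more were fitted on log2(TPM + 1) with limma 3.58.1 (trend, R 4.3.3) and adjusted by Benjamini-Hochberg. The code was tested on simulated data. Ratios used exact permutation tests over all assignments of the pools, computed with numpy 2.4.6. Promoter windows came from RefSeq (GRCm38), which held 9 of the 10 members. The p-values measure the spread between pools of 5 mice.

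The members and lists were chosen with earlier results of these data known. Named were all members, up to 3 genes with the highest and the lowest fold change called in each list, the partners, p53 targets and kinase targets described beside members, and the 3 genes most alike Chek1 and Trp53. Trp53inp1, Plk2, the overlap partners and the cell type markers were named after their values were seen. Alternatives were a pseudocount of 0.1, no filter, a filter of 5 TPM, FPKM as deposited, quantile normalization, median-of-ratios scaling, the replicate number as a block, and each pool left out in turn. No source states that pools of the same number share mice. Other measurements of the study were not analysed here. One marker of the sort is not reported here.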

Additional observations from a re-analysis of the deposited data

How the results depend on the processing

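Of 595 alternative values for the fold changes of 46 genes, 569 kept their direction and their side of the threshold. The 6 ratios kept their direction in all 48, and 199 of 208 counts of genes stayed within 1.5 times of the reported count. Between 6 and 8 members were called when each pool was left out in turn, and 7 under every other setting. Leaving out GC replicate 2, the GC pool with the highest epithelial markers, which was read again after the data were seen, left 7 members called. Over the pools left out in turn, Atm ranged from -0.34 to 0.11 and turned positive without GC replicate 2, Mdm4 ranged from -0.20 to 0.01, turned positive without naive replicate 2 and was called without naive replicate 3, and Hus1 ranged from 0.27 to 0.35 and missed the threshold without GC replicate 3. Rad1 was -0.02 with FPKM as deposited, -0.03 under quantile normalization, -0.03 without GC replicate 1 and -0.11 without naive replicate 1. The number of sensors and adaptors called lower was 0 without a filter, 2 under quantile normalization and 0 to 2 with a pool left out, and that of p53 regulators was 2 under quantile normalization and 1 to 2 with a pool left out. The cause of these shifts was not tested. Under quantile normalization the median of all genes was -0.06 and 47.8% of calls were higher in GC B cells, against 54.1% as reported. With the replicate number as a block, 7960 genes and 7 members were called, against 8392 and 7 without it. Deviations of pools with the same number correlated by 0.083, 0.0225 and 0.0456, and 5 of 6 pools correlated best with their own number. These values do not settle whether the numbers pair the pools. The numbers were not taken to pair them because the methods do not say that they do. With the block the p of the ratios could not go below 0.25. Depth limits the naive values of Chek1, which rest on about 42 to 140 reads, and of other low genes.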
